A study of Mus musculus with 11 samples.

Results

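The histone genes of the mouse nucleus accumbens are described here, the part of the ventral striatum that processes reward. They were chosen by name: protein-coding rows of the deposited tables whose symbol begins with Hist1h to Hist4h, H2af, H3f3 or H1f. The rule found 22 of 14667 genes in both tables. Of these, 12 belong to the histone gene clusters (the Hist symbols) and 10 are replacement variants (H2afj, H2afv, H2afx, H2afy, H2afy2, H2afz, H3f3a, H3f3b, H1f0 and H1fx). RNA was taken from the accumbens of C57/BL6 mice that carried a virus for GFP, a fluorescent control protein, or for E2F3a, a form of the transcription factor E2F3. The groups were GFP with saline (4 mice), GFP with cocaine (3 mice) and E2F3a with saline (4 mice), with 1 mouse per library. No source used here gives the virus type, its promoter, the dose of cocaine or the ages. Mice with E2F3a that received cocaine were not analysed here. The deposited values are statistics of 2 comparisons, with none per library, so neither a gene's level in single mice nor library depth is known.

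Histones package DNA: an octamer of H2A, H2B, H3 and H4 forms the nucleosome core, and H1 binds the linker between cores. The clustered genes supply histones during S phase, when DNA is copied; their messages usually lack introns and end in a conserved stem-loop, bound by SLBP, in place of a poly(A) tail. Replacement variants are made throughout the cell cycle and in non-dividing cells from polyadenylated messages, and in neurons they replace much of the histone laid down at the last division. Some clustered genes also give polyadenylated messages in differentiated cells. The libraries here were made from poly(A) RNA, and poly(A) selection captures messages without a tail poorly.

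The stem-loop was searched for in the annotated coding transcripts of GENCODE M21, on the transcript strand, to check the name-based classes against sequence. It was present in 9 of the 12 cluster genes and in 1 of the 10 variants, H2afx, a gene known to make both kinds of message. No match to the searched pattern was found in the annotated transcripts of Hist1h2bc, Hist1h4k and Hist2h2be; that of Hist1h4k is annotated over 312 bases, which is close to its coding length of 309 bases. Over all 21951 annotated protein-coding genes, 0.241% had a match. The printed loops carry the 4 versions found among the 22 genes, with the 16 bases of the stem-loop in capitals and the flanking bases of the message in lower case.
Hist1h1c, mm10 chr13:23739507-23739536, plus strand: caaaaGGCTCTTTTCAGAGCCaccactccc
Hist1h2be, mm10 chr13:23585522-23585551, minus strand: ccaaaGGCTCTTTTCAGAGCCacccaacag
Hist2h3c2, mm10 chr3:96238476-96238505, minus strand: acaaaGGCTCTTTTCAGAGCCaccacagct
Hist1h4h, mm10 chr13:23531453-23531482, plus strand: ccaaaGGCCCTTTTCAGGGCCgcccacatt
Hist1h4i, mm10 chr13:22040957-22040986, minus strand: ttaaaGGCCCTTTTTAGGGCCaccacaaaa
H2afx, mm10 chr9:44335235-44335264, plus strand: acaaaGGCCCTTTTAAGGGCCaccacctcc
The version of Hist1h1c was shared by 6 of the 10 genes with a match: Hist1h1c, Hist1h1e, Hist1h2be, Hist2h3c2, Hist3h2a and Hist3h2ba. The version of Hist1h4i was also that of Hist2h4, and none of the 3 H4 genes with a match carried the version of Hist1h1c.

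Annotated messages of the cluster genes in the tables mostly run on past the stem-loop. For each gene with a match, the coding transcript with the longest stretch after the stem-loop was used, so these lengths are maxima. In 8 of the 9 with a match the transcript continued for more than 100 bases, with a median of 840 bases and a range from 46 bases for Hist1h4h to 1861 bases for Hist1h2be. Of the 55 annotated cluster genes that have no row in the tables used here, 37 had a match, and 15 of those ran on for more than 100 bases, with a median of 47. A poly(A) signal (AATAAA or ATTAAA) was sought in the last 40 bases of the same transcript, or of the longest coding one where no stem-loop matched. It lay there in 8 of the 12 cluster genes with a row and in 8 of the 55 without one. Several genes without a row are annotated over little more than a coding sequence, such as Hist1h2bl at 381 bases. Neither feature could be found in these, so the contrast partly reflects the annotation. The signal was counted in the same way for variants. A signal was present in 8 of the 10 variants. In all, 12 of 67 annotated cluster genes (17.9%) and 10 of 15 annotated variants (66.7%) had a row, against 60.1% of all annotated protein-coding genes. By histone type, the clusters gave 2 of 6 annotated H1 genes, 1 of 18 H2A, 4 of 18 H2B, 1 of 12 H3 and 4 of 13 H4. No source used here gives the rule for keeping a gene in the tables.

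**Figure D1:**
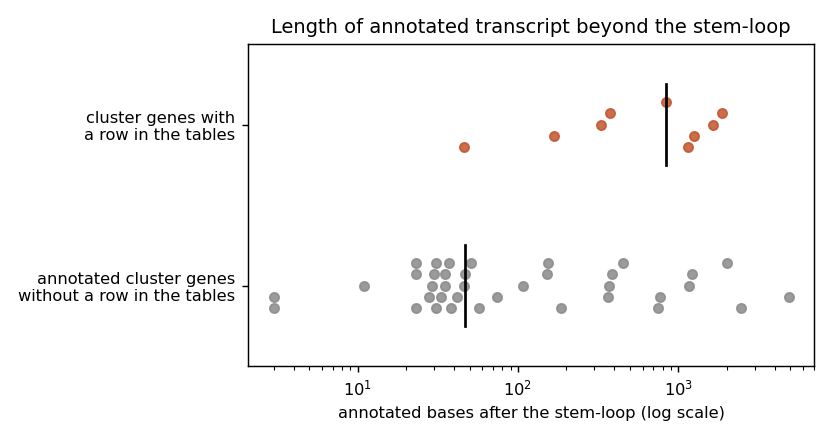
Longest annotated transcript stretch beyond the histone stem-loop of each gene in bases, on a log axis. Points are cluster genes with a row in the tables (9 points) and annotated cluster genes without one (37 points), and vertical bars are medians. The median is 840 bases with a row and 47 bases without one, and the sets overlap.

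The Hist1 genes lie on chromosome 13, the Hist2 genes on chromosome 3 and the Hist3 genes on chromosome 11, while the variants are scattered. In mm10 coordinates, H3f3b spans chr11:116021912-116027962, H2afz chr3:137864487-137866922, Hist1h1c chr13:23738808-23740367 and Hist2h4 chr3:96261682-96263311. Gene structure followed the classes only in part. Of the variants, H2afv, H2afz, H2afy, H2afy2, H3f3a and H3f3b are spliced in every annotated coding transcript, while H1f0, H1fx, H2afj and H2afx have a single exon. Of the cluster genes, Hist1h2bc and Hist1h2be are annotated with 2 exons and the other 10 with 1. H3f3a and H3f3b, which encode H3.3, give the same protein of 136 residues from coding sequences that differ at 95 of 408 bases. That protein differs from the H3 of Hist2h3c2 at 4 residues. The H2A.Z proteins of H2afz and H2afv differ at 3 of 128 residues. The 4 H4 genes, Hist1h4h, Hist1h4i, Hist1h4k and Hist2h4, encode 1 protein of 103 residues, and Hist1h2bc and Hist1h2be encode 1 protein of 126 residues from coding sequences that are 98.4% identical.

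Such copies limit what reads of 125 bases can tell apart. Among windows of that length along the longest coding transcript, 39.5% of those of Hist2h3c2, 40.4% of those of Hist1h4k and 42.3% of those of H2afz were found in no other annotated gene. The windows that H2afz shares lie in the pseudogene Gm8203 and in Tmcc1. The same share was 65.9% for Hist1h4h, 71.1% for Hist3h2a, 75.3% for H3f3a and 78.2% each for Hist1h1e and Hist1h2bc. It was at least 89.7% for the other 14 genes, with 98.8% for H3f3b and 100% for H2afv, Hist2h2be, Hist2h4 and Hist3h2ba. Exons of Hist1h1e and Hist1h2be overlap each other and Gm11398 on the same strand, as do those of Hist3h2a and Trim17 and those of H1fx and Gm47286. Exons of H1f0, H1fx, H2afj, H2afx, H2afy, H2afy2, H3f3a and Hist3h2a overlap genes on the other strand, Aifm2 in the case of H2afy2. The library kit does not mark strand, so reads from such overlaps cannot be told apart. No source used here says how the authors counted shared reads, and the values of these genes are uncertain to that extent.

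Among the 22 genes, most of the message in these poly(A) libraries came from variants. Levels were compared after subtraction of the log2 of the annotated exon length in kilobases from the mean log2 expression in the authors' deposited table. That length joins the exons of all annotated transcripts of a gene. It is 6.809 kilobases for H2afy and 1.776 for H2afz, whose longest coding transcripts have 2046 and 1069 bases. H2afy ranked 2 among the 22 genes as deposited and 10 per kilobase. The order and the gaps per kilobase depend on this choice of length. With 2 raised to these values, variants held 76.6% of the sum over the 22 genes and H3f3b alone 31.4%. The median log2 level per kilobase was 4.01 for variants and 1.20 for cluster genes. On this scale of log2 level per kilobase, H3f3b came first at 6.71, then H2afz at 5.06 and H1f0 at 5.05. A pair of cluster genes followed directly, Hist1h1c, a linker histone, at 4.68 and Hist1h2bc, an H2B gene, at 4.40. H2afx, whose protein is phosphorylated at DNA breaks, stood at 4.35, H2afv at 4.15 and H3f3a at 3.87. Then came Hist3h2ba at 3.62, H2afy at 3.48, H2afy2, the macroH2A2 gene, at 3.21, H2afj at 2.82, Hist3h2a at 2.68 and H1fx at 2.22. The remaining 8 genes were all cluster genes, from Hist2h2be at 1.40 through Hist1h4i, Hist2h3c2 at 1.10, Hist1h4k at 0.72, Hist1h2be at 0.56, Hist1h4h at 0.43 and Hist2h4 at -0.75 to Hist1h1e at -1.42. The tables give 1 mean per gene with no spread, so it cannot be said which neighbours in this order differ. The 2 genes for H3.3 were 2.84 apart on this log2 scale, and the 2 for H2A.Z were 0.91 apart. Before scaling by length, 3 of 12 cluster genes (Hist1h1c, Hist1h2bc and Hist3h2a) and 9 of 10 variants, all but H1fx, lay above the 25th percentile of all genes, a mean log2 expression of 3.21 in the authors' deposited table.

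**Figure D2:**
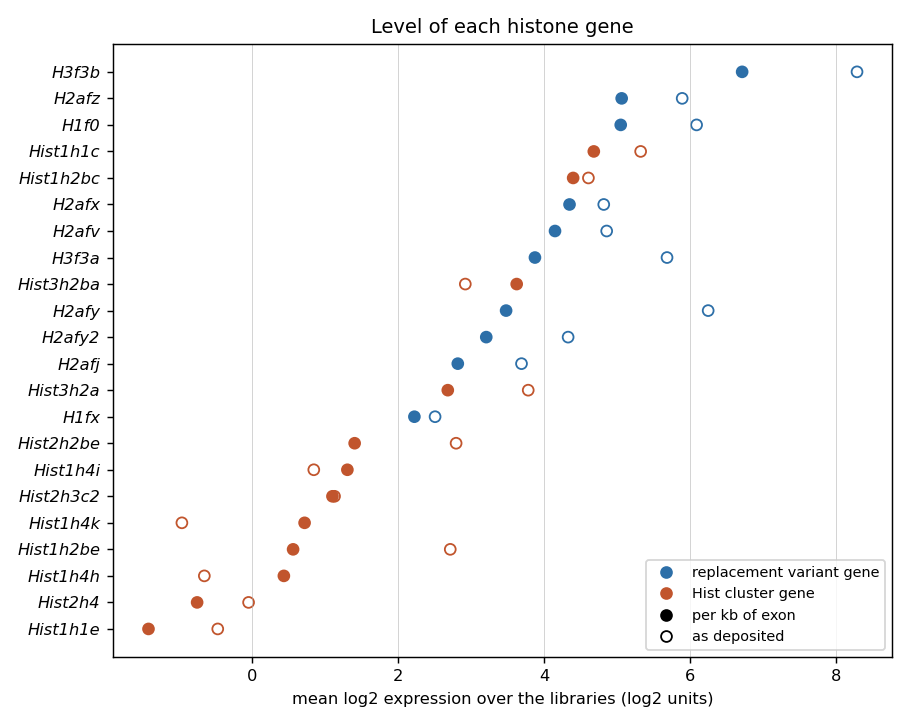
Mean log2 expression over the libraries for each of the 22 histone genes, per kilobase of annotated exon (filled) and as deposited (open), with replacement variants in blue and cluster genes in red. The variants fill most of the upper ranks, Hist1h1c (4.68) and Hist1h2bc (4.40) stand among them, and 8 cluster genes take the lowest ranks.

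The overexpressed gene and the tissue were checked first. The authors' deposited table lists E2f3 at a log2 fold change of 1.01 in E2F3a mice (SE 0.20). SE stands for the standard error implied by the deposited fold change and t. Of 12 entries for accumbens neurons 11 had a row, and the other, Drd1, is a second symbol of the listed Drd1a. Penk, the proenkephalin gene, reached a mean log2 expression of 9.92 in the authors' deposited table. By the authors' moderated test 0 of 14667 genes passed an adjusted p of 0.05 in either comparison (0%). At an unadjusted p under 0.05 there were 1356 genes with cocaine and 140 with E2F3a.

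The first comparison set cocaine, which blocks dopamine reuptake, against saline in mice with GFP. No histone gene passed the adjusted threshold (0 of 22, against a background of 0%). Most estimates were small and negative: 18 of 22 lay below 0, where 53.8% of all genes did. At an unadjusted p under 0.05, 2 histone genes were lower, both of them variants, and 0 were higher. The background at that level was 7.51% of all genes lower and 1.74% higher, or 9.25% in either direction, so 2 of 22 (9.09%) is near the background. The 2 genes, H3f3b and H2afz, are the highest of the 22 in log2 level per kilobase.

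Among the H3 variants, H3f3b had a log2 fold change of -0.42 in the authors' deposited table (SE 0.14, 95% interval -0.73 to -0.11), an estimated fold of 0.750. Its unadjusted p was 0.0131 and its adjusted p 0.533 by the authors' moderated test in their deposited table. H3f3a, the second gene for the same protein, stood at -0.14 in the authors' deposited table, with an interval from -0.44 to 0.16, and the 2 intervals overlap. H2afz, which encodes the H2A.Z found at promoters, was at -0.37 in the authors' deposited table (SE 0.16, interval -0.72 to -0.03, unadjusted p = 0.0355, adjusted p = 0.533 by the authors' moderated test). Its close relative H2afv was at -0.20 (interval -0.65 to 0.25) in the authors' deposited table. The intervals of H2afz and H2afv overlap too.

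The other H2A variants had estimates nearer to 0 than H2afz. H2afx was listed at -0.26 (SE 0.19), H2afy at -0.19 (SE 0.10), H2afj at -0.09 (SE 0.13) and H2afy2 at 0.06 (SE 0.13) in the authors' deposited table. H2afy2 was the only variant with an estimate above 0, and the interval of each of these 4 included 0. Among linker histones outside the clusters, the authors' deposited table gives H1f0, which accumulates in non-dividing cells, at -0.33 (SE 0.16, interval -0.69 to 0.03) and H1fx at -0.08 (SE 0.28). Over the 10 variants the median was -0.19, against -0.02 for all genes.

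The 12 cluster genes had a median of -0.13 with 9 estimates below 0, and none had an unadjusted p under 0.05. Linker genes had the most negative estimates, with Hist1h1c at -0.45 (SE 0.21, interval -0.91 to 0.01, unadjusted p = 0.0527) and Hist1h1e at -0.43 (SE 0.36) in the authors' deposited table. H2B genes were spread over both signs, at -0.30 (SE 0.17) for Hist1h2bc, -0.16 (SE 0.24) for Hist3h2ba, -0.10 (SE 0.16) for Hist1h2be and 0.09 (SE 0.12) for Hist2h2be in the authors' deposited table. The single H2A and H3 genes of the clusters lay close to 0, with Hist3h2a at -0.08 (SE 0.17) and Hist2h3c2 at -0.07 (SE 0.28) in the authors' deposited table. Estimates of the H4 genes ran from Hist1h4i at -0.31 (SE 0.27) and Hist1h4h at -0.16 (SE 0.44) to Hist1h4k at 0.13 (SE 0.35) and Hist2h4 at 0.65 (SE 0.31) in the authors' deposited table.

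Hist2h4 had the most positive estimate of the 22 histone genes with cocaine, larger than that of 98.0% of all genes. Its interval ran from -0.04 to 1.33 and its unadjusted p was 0.0616 (adjusted p 0.543 by the authors' moderated test) in their deposited table. Its level is low, at a mean log2 expression of -0.05 in the authors' deposited table. The 4 H4 genes reached at most 0.84 on that scale, and their SEs, from 0.27 to 0.44, were larger than the median of 0.16 over all genes. Over the 4 linker genes of both classes all estimates were below 0, with a median of -0.38, and 0 of the 4 had an unadjusted p under 0.05.

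**Figure D3:**
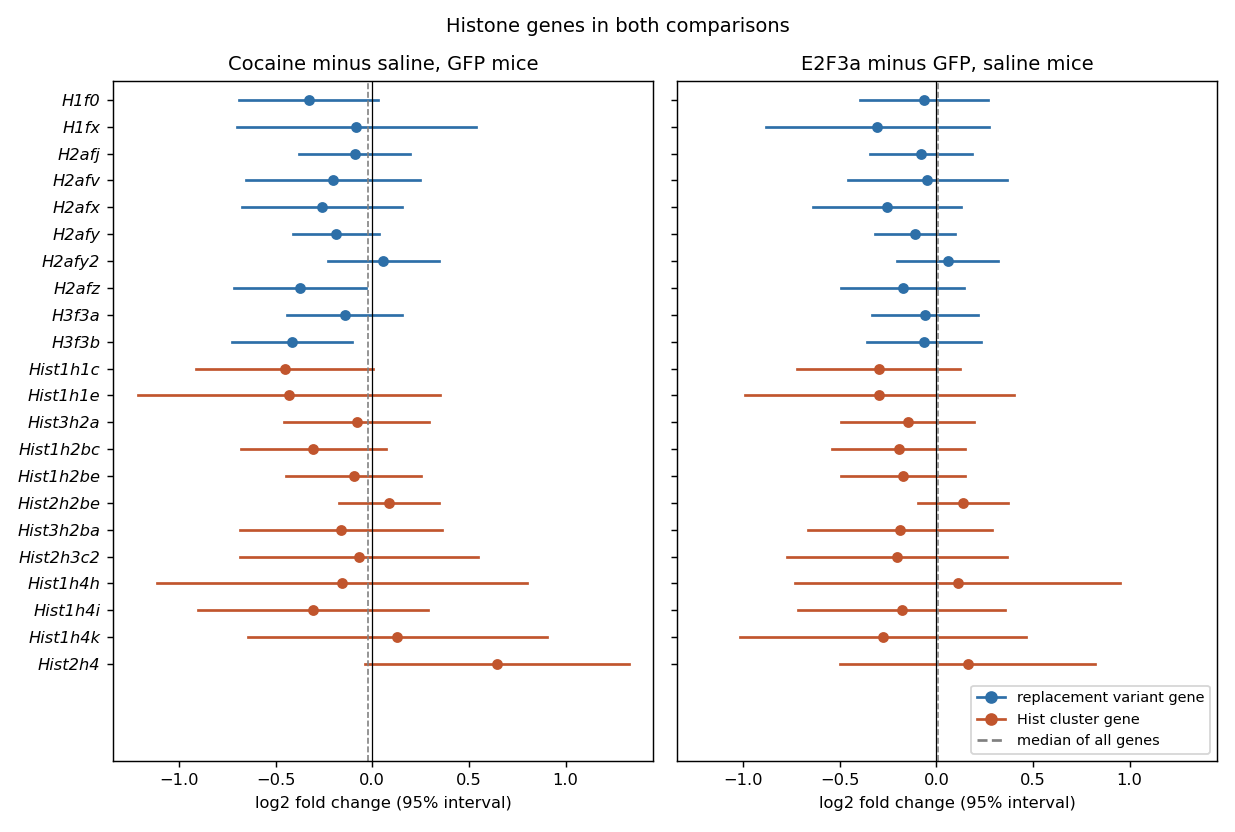
Log2 fold change with its 95% interval for each of the 22 histone genes, cocaine minus saline in GFP mice (left) and E2F3a minus GFP in saline mice (right), with variants in blue and cluster genes in red; the dashed line is the median of all genes. The intervals of H3f3b and H2afz end below 0 on the left, and every interval on the right includes 0.

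The second comparison set E2F3a against GFP in mice given saline. E2F factors drive genes of S phase entry, and clustered histone genes are switched on in the same phase. No histone gene passed the adjusted threshold here either (0 of 22, against 0%), and none had an unadjusted p under 0.05. The background at that level was 0.409% of all genes lower and 0.545% higher, 0.955% together. Estimates lay below 0 in 18 of 22 histone genes, where 47.5% of all genes did. Both comparisons use the same GFP mice given saline, so these counts of negative estimates are not separate observations.

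The cluster genes had a median of -0.18 with E2F3a and the variants -0.07, against 0.01 for all genes. The cluster genes with the smallest unadjusted p were Hist1h1c at -0.30 (interval -0.72 to 0.12, p = 0.147) and Hist2h2be at 0.14 (interval -0.10 to 0.37, p = 0.224) in the authors' deposited table. The remaining H2B genes were listed at -0.19 for Hist1h2bc, -0.19 for Hist3h2ba and -0.17 for Hist1h2be in the authors' deposited table. Hist1h1e stood at -0.29, Hist2h3c2 at -0.20 and Hist3h2a at -0.15 in the authors' deposited table. The H4 genes were again on both sides, with Hist1h4k at -0.28, Hist1h4i at -0.18, Hist1h4h at 0.11 and Hist2h4 at 0.16 in the authors' deposited table. Hist1h1c is bounded by these data to a fold between 0.607 and 1.09, and Hist2h4 to one between 0.708 and 1.77.

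The variants under E2F3a ranged from H1fx, the lowest estimate of the 22 genes, to H2afy2. H3f3b was at -0.06 (interval -0.36 to 0.23), a fold between 0.781 and 1.17, and H3f3a at -0.06 (interval -0.33 to 0.22) in the authors' deposited table. H2afx at -0.26 (SE 0.17) and H1fx at -0.31 (SE 0.26) had the most negative variant estimates in the authors' deposited table, followed by H2afz at -0.17 (SE 0.14) and H2afy at -0.11 (SE 0.09). In the authors' deposited table H2afj stood at -0.08, H1f0 at -0.07, H2afv at -0.05 and H2afy2 at 0.06.

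Cluster genes and variants were set side by side by their medians. With cocaine the medians were -0.13 and -0.19, and with E2F3a -0.18 and -0.07. With E2F3a the gap between the classes was small as a mean (-0.13 for cluster genes and -0.11 for variants), and both stood at -0.09 as a mean weighted by precision. With cocaine the order turned to -0.30 for cluster genes and -0.20 for variants when only genes above the 25th percentile of expression were kept (3 and 9 genes). It turned to -0.23 and -0.19 when only genes with mostly unique windows and no exon shared with a gene on the same strand were kept (6 and 8 genes), a choice made after seeing the data. The SEs of single cluster genes were larger, with a median of 0.26 for cocaine against 0.15 for variants. The difference between classes was not tested.

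A direct comparison of E2F3a mice given saline with GFP mice given cocaine can be approximated from the difference of the deposited fold changes, in which the shared control mice cancel. No gene passed an adjusted p of 0.05 in it (0 of 14667, 0%), and at an unadjusted p under 0.05 there were 666 genes (4.54%). H3f3b was higher in the E2F3a mice by 0.35 (approximate SE 0.14, interval 0.04 to 0.67, unadjusted p = 0.0307, Benjamini-Hochberg adjusted p = 0.925). It was the 1 histone gene of 22 at an unadjusted p under 0.05, where 4.11% of all genes were higher. Among variants 9 of 10 differences lay above 0, and among cluster genes 6 of 12, against 57.7% of all genes.

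Genes that make, process and place histones were examined as lists. Of the 24 listed S phase genes 22 had a row. With cocaine all 22 were below 0, where 53.8% of all genes were, and their median was -0.52. Of the 22, 17 were lower at an unadjusted p under 0.05, against 7.51% of all genes. The most negative estimate of the 22 was that of Rrm2, a subunit of ribonucleotide reductase, at -1.16 (SE 0.33) in the authors' deposited table. Cluster histone genes, with a median of -0.13 and 0 of 12 at that level, were listed beside them without a test of the difference. Of these cluster genes, 9 lay below a mean log2 expression of 3.21, with a median of -0.10. The 3 above it had a median of -0.30. The median SE was 0.26 for the 12 cluster genes and 0.20 for the S phase genes. Poly(A) selection captures messages without a tail poorly, so these values cannot show whether such histone messages followed the S phase genes. With E2F3a the S phase genes had a median of -0.12, and 0 had an unadjusted p under 0.05. All 22 of 22 were below 0, where 47.5% of all genes were. The same GFP mice given saline serve both comparisons, so this count does not repeat the one with cocaine.

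Chaperones that place new histones behind the replication fork had 10 rows and a median of -0.19 with cocaine. Against 7.51% of all genes, 4 of the 10 were lower at an unadjusted p under 0.05. These were Asf1b, an H3-H4 chaperone, at -0.88 (SE 0.31), Chaf1b and Chaf1a, subunits of CAF-1, at -0.86 (SE 0.34) and -0.45 (SE 0.19), and Mcm2, a helicase subunit that binds H3-H4, at -0.51 (SE 0.19) in the authors' deposited table. Mcm2 is also in the S phase list and is counted in both lists. None of the 10 had an unadjusted p under 0.05 with E2F3a, where the median was -0.07. The chaperones and remodelers of variants, with 20 rows, had medians of -0.02 with cocaine and 0.03 with E2F3a, and 0 of 20 had an unadjusted p under 0.05 in either. Among them Atrx, which deposits H3.3 with Daxx, was at 0.21 (SE 0.14) and Dek at -0.24 (SE 0.12) with cocaine in the authors' deposited table. Vps72, which carries H2A.Z to its remodeler, was at -0.13 (SE 0.09) with E2F3a in the authors' deposited table. Genes for the 3' end of histone messages, with 17 rows, had medians of -0.05 and -0.03, and 0 of 17 reached that level in either comparison. In the authors' deposited table Slbp, the stem-loop binding protein, stood at -0.36 (SE 0.20) with cocaine, and Npat, the coactivator of clustered histone genes, at 0.13 (SE 0.09) with E2F3a.

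**Figure D4:**
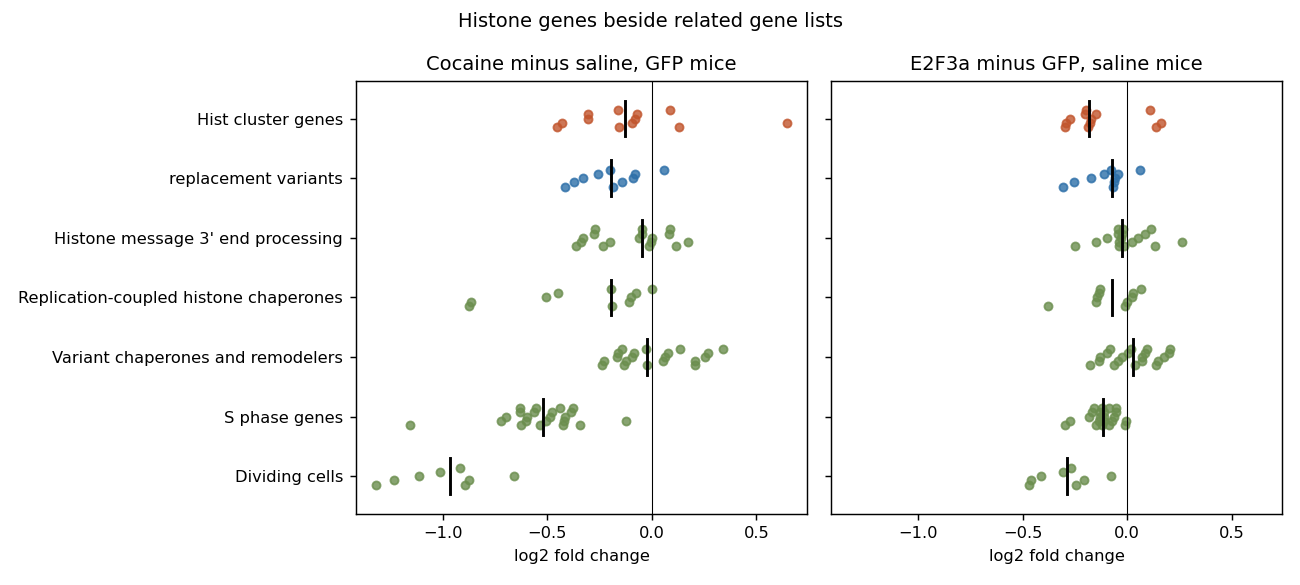
Log2 fold change of each gene (points) and the median of each list (bars) for cluster histone genes, replacement variants and 5 related lists, cocaine minus saline in GFP mice (left) and E2F3a minus GFP in saline mice (right). With cocaine the S phase list has a median of -0.52 and the cluster histone genes -0.13. The 3 cluster genes above a mean log2 expression of 3.21 have a median of -0.30 and the 9 below it -0.10. The difference between the lists was not tested.

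Markers of other cells also had estimates away from 0. With cocaine all 8 markers of dividing cells were below 0 (median -0.97, with 7 at an unadjusted p under 0.05), as were all 5 of red blood cells (-1.54, 5) and all 6 measured markers of leukocytes (-1.64, 6). Over all genes, 53.8% were below 0 and 7.51% were lower at an unadjusted p under 0.05. Microglia markers had a median of -0.28, with 2 of 6 at that level, and subventricular progenitor and neuroblast markers one of -0.12, with 0 lower and 1 higher of 6. With E2F3a 0.409% of all genes were lower at an unadjusted p under 0.05. The list medians in that comparison were -0.29 for dividing cells (0 of 8 at that level), -0.87 for red blood cells (5 of 5) and -0.49 for leukocytes (1 of 6). In the same comparison they were 0.05 for microglia, with 4 of 6 above 0, and 0.29 for subventricular progenitors and neuroblasts, with 5 of 6 above 0, and 0 of 6 at that level in each. Accumbens neuron markers had medians of 0.08 with cocaine and -0.06 with E2F3a, with 0 of 11 at that level in either. The 2 oligodendrocyte precursor markers had a median of 0.13 in each comparison, with 0 at that level. Of 3 ependyma and choroid plexus entries only Foxj1 had a row. It was at -0.27 (SE 0.31) with cocaine and 0.45 (SE 0.26) with E2F3a in the authors' deposited table. The part of these cells in the histone values was not tested, and in bulk tissue fewer cells of a type and less RNA per cell cannot be told apart. Since the same GFP mice given saline serve both comparisons, the list values with cocaine and with E2F3a are not separate observations.

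Promoters were read for motifs because the overexpressed factor is an E2F and because clustered histone genes share promoter elements. RefSeq promoter windows, from 250 bases before to 50 after the start, were matched for 18 of the 22 genes. Those of H2afx, Hist1h2bc, Hist2h2be and Hist2h4 were not matched. The windows of the pair of variants with an unadjusted p under 0.05 for cocaine, and of Hist1h1c, the cluster gene with the smallest, are shown with every match to a searched motif in capitals.
H3f3b, GRCm38.p6 chr11:116024455-116024754, minus strand: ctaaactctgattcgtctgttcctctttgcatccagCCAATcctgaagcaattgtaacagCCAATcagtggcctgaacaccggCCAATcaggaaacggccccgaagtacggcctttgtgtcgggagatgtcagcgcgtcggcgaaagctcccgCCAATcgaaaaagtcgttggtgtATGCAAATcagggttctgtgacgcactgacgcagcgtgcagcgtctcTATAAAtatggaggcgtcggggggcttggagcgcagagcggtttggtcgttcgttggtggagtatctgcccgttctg
H2afz, GRCm38.p6 chr3:137864237-137864536, plus strand: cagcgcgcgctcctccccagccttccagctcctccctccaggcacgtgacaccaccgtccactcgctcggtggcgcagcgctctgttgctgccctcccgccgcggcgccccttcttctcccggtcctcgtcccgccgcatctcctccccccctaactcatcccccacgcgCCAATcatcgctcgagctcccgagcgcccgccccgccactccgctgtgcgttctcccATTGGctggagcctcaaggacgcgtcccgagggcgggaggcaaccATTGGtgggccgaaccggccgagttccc
Hist1h1c, GRCm38.p6 chr13:23738557-23738856, plus strand: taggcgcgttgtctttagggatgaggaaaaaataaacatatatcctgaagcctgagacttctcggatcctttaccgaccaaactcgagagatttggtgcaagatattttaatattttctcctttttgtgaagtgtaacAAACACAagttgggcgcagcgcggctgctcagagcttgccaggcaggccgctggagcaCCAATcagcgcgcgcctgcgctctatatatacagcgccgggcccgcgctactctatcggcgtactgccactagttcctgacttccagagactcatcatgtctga
Of the forms of the E2F motif only TTTCGCGC and TTTGGCGC were searched, on both strands. They were found in 0 of the 18 genes, and in 0.32% and 0.51% of all 32851 promoter windows. At such low rates a count of 0 in 18 genes cannot show that these promoters lack E2F sites. CCAAT, the element bound by NF-Y, was present in 6 of 9 cluster genes and 6 of 9 variants, against 37.41% of all windows. H3f3b holds it 4 times and H2afz 3 times, on either strand. TATAAA was present in 4 of 9 cluster genes and in 1 of 9 variants, H3f3b, against 13.62%. The octamer ATGCAAAT, known from H2B promoters, was in 2 cluster genes and in H3f3b, against 1.74% of all windows. The 2 were Hist1h2be, an H2B gene with the match in 1 of its 2 windows, and Hist3h2a, an H2A gene. The H2B gene Hist3h2ba had no octamer match. A gene was counted if any of its windows matched. The motif AAACACA of H1 promoters was in Hist1h1c, Hist1h1e and H3f3a, against 7.18%. None of these motifs contains another, and a match describes letters only.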

How the data were processed

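Poly(A)-selected RNA from the accumbens of 1 mouse per library (300 ng) was made into TruSeq v2 libraries, a kit that does not mark strand, and sequenced as single-end reads of 125 bases, per the labels' protocols. HTSeq 0.6.0, TopHat2 2.0.9, Bowtie2 2.1.0 and the build mm10 appear, without roles, in the submitters' processing notes. No source used here names the normalization, the filter or the test program. Both of the authors' deposited tables list the same 14667 genes. Per the file headers, each gene has its log2 difference between groups, its average log2 expression, the score columns t and log odds (log odds unused), and a p-value before and after adjustment, under column names that limma writes. The authors' deposited mean expression was identical in both tables, and 2 raised to it summed to 986624, near the total of CPM values. Replicates of a group are separate mice per the labels.

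SE is the log2 fold change divided by t. Intervals cover 95% with the 11.29 degrees of freedom that the deposited t and p-values share. Recomputed Benjamini-Hochberg values matched the deposited ones. No model was refitted. The comparison of E2F3a with cocaine assumes equal library weights. Its formula was tested on data simulated with equal weights and the same variance in every group, which cannot check that assumption. The members and lists were chosen with earlier results of these data known. By the naming rule every histone gene, E2f3 and up to 4 genes per list with the smallest p in each comparison could be named. Coordinates, exons and transcripts come from GENCODE M21, built on the mm10 assembly, where 14584 of 14667 gene IDs matched. Promoters are from RefSeq, GRCm38.p6. Alternatives were other thresholds, an expression floor, and other summaries or subsets of members. Python 3.11.15, numpy 2.4.6, scipy 1.17.1, pandas 2.3.3 and matplotlib 3.10.9 were used.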

Additional observations from a re-analysis of the deposited data

How the results depend on the processing

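No paired analysis was possible because the tables hold no values per library, and for the same reason no replicate could be left out and no other normalization tried. The count of histone genes past the threshold was 0 in each class and comparison. It was also 0 at an adjusted p under 0.1, with an expression floor and with a recomputed adjustment. By the authors' moderated test the smallest adjusted p of any gene was 0.533 with cocaine and 0.9998 with E2F3a. A cut of 0.1, or a recomputed adjustment that matched the deposited one, therefore could not have changed the count. For the 10 variants with cocaine the count was 2 (H3f3b and H2afz) at an unadjusted p under 0.05, where 9.25% of all genes passed. With a fold over 1.3 in either direction added the count was 1 (H3f3b), because H2afz, at an estimated fold of 0.772, fell just short. The share of all genes at that setting was not computed, so this count has no background to be read against. Medians with cocaine ran over the alternatives from -0.30 to -0.09 for cluster genes and from -0.20 to -0.17 for variants. With E2F3a they ran from -0.19 to -0.09, the latter as a mean weighted by precision, and from -0.11, as a plain mean, to -0.06. The cause of these shifts was not tested. Low levels limit the cluster genes, 9 of which lie under the floor.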

Other observations

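Cenpa, the centromeric H3 variant, lies outside the naming rule for histone genes and was looked up after the values were seen. The authors' deposited table lists Cenpa at a log2 fold change of -1.10 with cocaine (SE 0.34, interval -1.85 to -0.35, unadjusted p = 0.00822, adjusted p = 0.533 by the authors' moderated test), below all but 1.49% of genes. With E2F3a the authors' deposited table gives Cenpa at -0.34 (SE 0.28, unadjusted p = 0.249). Its estimate with cocaine was more negative than those of all 22 histone genes chosen by name, the lowest of which is Hist1h1c at -0.45 in the authors' deposited table, and the difference was not tested. Cenpa is made in G2 phase in dividing cells. The markers of dividing cells had a median of -0.97 with cocaine, and a link between them and the Cenpa estimate was not tested.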
